A study of Mus musculus with 24 samples.

Results

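Cholesterol synthesis, uptake and export were described through 32 genes in 24 arrays of undifferentiated mouse embryonic stem cells. The genes were listed by name, and each was read through the probe set that the platform annotation gives to that gene alone, taking the one with the highest mean over all 24 arrays where there were several. Of the 32 genes 30 had such a probe set, among 18193 genes in all, and 29 of these reached a log2 value of 5 on at least 3 of the 24 arrays and were tested, among 9504 genes. Acat2 and Nr1h2 were not analysed here. Nr1h3, which encodes the oxysterol receptor LXR alpha, lay between 2.16 and 2.41 on every array and was not tested. Values are the deposited log2 signals, and a value under 5 was not told from background. A gene is said to have been called, to have risen or to have fallen where limma's moderated test gave a Benjamini-Hochberg adjusted p under 0.05 over 17980 probe sets, and calls were repeated under alternative settings, such as other normalizations, filters or sets of arrays.

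All cells were of strain 129/Sv, and the groups differ at the huntingtin gene, Htt, called Hdh in the labels, in which long CAG repeats cause Huntington's disease. Control cells carried 7 repeats on both alleles (n = 6) and knock-out cells were null for the gene (n = 6). The knock-in lines kept a 7-repeat allele beside a longer one (n = 3 each). That of Q20 had 16 repeats, that of Q50 45 or, in replicate 3, 43, that of Q91 85 and that of Q111 111. Each repeat length was 1 line, so line and repeat length cannot be told apart, and the labels do not say whether arrays of a group came from separate clones or cultures, and p-values thus cover no more than the spread among these arrays. The growth medium is given as standard, with no word on serum or feeder cells. The labels' description field calls the control arrays cells without the gene and the knock-out arrays controls, against the titles followed here. Htt itself was at 8.01 in the control arrays and 7.21 in the knock-out arrays, a fall by 0.80 (SE 0.16, limma adjusted p = 0.00195), and which part of it was deleted is not given. The lines, which keep the gene, also read below the controls: Htt had a mean of 7.54 in Q20, 7.40 in Q50, 6.96 in Q91 and 7.22 in Q111, and it fell in Q91 (change -1.05, adjusted p = 0.000565) and Q111 (change -0.79, adjusted p = 0.00445). Its level thus does not set the knock-out arrays (6.67 to 7.39) apart from the knock-in arrays (6.67 to 7.69). All 12 embryonic stem cell markers examined had a mean of 5 or more in every group, whereas 2 of 13 endoderm and 2 of 9 macrophage markers did so in each group. In bulk RNA, fewer cells of a type and less RNA per cell cannot be told apart.

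Cells make cholesterol from acetyl-CoA through mevalonate, farnesyl diphosphate and squalene, or take it up from lipoproteins. When sterols in the endoplasmic reticulum are low, Scap carries the SREBP transcription factors to the Golgi, where they are cleaved and released to switch on the synthesis enzymes and uptake genes, and when sterols are high, the Insig proteins hold Scap back. Surplus sterol, as oxysterols, activates the LXR receptors, which raise export through Abca1 and Abcg1 and induce Mylip, an E3 ligase that degrades lipoprotein receptors.

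The promoters of 5 members are shown because these genes were among those called in most of the comparisons or carry the letters of a sterol regulatory element, the kind of site bound by SREBP. The stretches are the 250 bases before the start site in the RefSeq table of GRCm38.p6, on the gene's own strand. Capitals mark TCACNCCA, the shorter of the forms searched for that element, and CCAAT, the box bound by NF-Y, a factor known to act beside SREBP. A CCAAT on the other strand reads ATTGG here.
Hmgcs1, chr13:119690101-119690350, plus strand: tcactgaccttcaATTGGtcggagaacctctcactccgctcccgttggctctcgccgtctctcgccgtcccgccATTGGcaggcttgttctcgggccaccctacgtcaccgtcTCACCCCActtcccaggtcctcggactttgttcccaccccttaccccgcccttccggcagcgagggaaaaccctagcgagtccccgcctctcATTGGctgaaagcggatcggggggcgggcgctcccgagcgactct
Msmo1, chr8:64733579-64733828, minus strand: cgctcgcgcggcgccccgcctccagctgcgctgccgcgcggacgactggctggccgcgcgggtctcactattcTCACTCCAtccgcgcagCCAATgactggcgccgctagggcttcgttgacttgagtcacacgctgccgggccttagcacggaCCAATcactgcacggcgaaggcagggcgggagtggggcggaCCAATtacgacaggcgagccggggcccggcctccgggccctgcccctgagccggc
Srebf2, chr15:82147019-82147268, plus strand: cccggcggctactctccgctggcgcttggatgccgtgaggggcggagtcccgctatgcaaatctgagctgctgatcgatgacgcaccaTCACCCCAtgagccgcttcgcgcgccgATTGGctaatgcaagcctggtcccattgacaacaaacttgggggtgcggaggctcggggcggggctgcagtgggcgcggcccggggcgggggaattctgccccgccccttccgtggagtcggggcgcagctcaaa
Idi1, chr13:8885356-8885605, plus strand: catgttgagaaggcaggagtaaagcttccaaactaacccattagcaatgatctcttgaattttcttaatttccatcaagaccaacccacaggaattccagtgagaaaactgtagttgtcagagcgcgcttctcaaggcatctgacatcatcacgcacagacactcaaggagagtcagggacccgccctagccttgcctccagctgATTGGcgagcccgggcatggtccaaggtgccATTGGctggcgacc
Cyp51, chr5:4104698-4104947, minus strand: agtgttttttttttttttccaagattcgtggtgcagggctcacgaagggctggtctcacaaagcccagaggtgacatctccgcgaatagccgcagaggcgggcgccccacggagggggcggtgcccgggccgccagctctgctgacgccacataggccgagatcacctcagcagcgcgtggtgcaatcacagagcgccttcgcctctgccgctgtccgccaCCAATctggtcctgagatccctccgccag
In Hmgcs1 the TCACNCCA match begins 137 bases before the start site, in Msmo1 177 and in Srebf2 162, while in Idi1 and Cyp51 only CCAAT matched. Other forms of the sterol regulatory element were not searched, so a promoter without a match may still hold one. Over the 26 members matched by symbol, and over 300 bases that also take in the first 50 of the transcript, TCACNCCA on either strand was found in 3, or in 8.57% of their 35 listed promoters, against 4.36% of all 32851 promoters of that length. The longer form TCACNCCAC, which contains the shorter, was found in Hmgcs1 alone, against 1.24% of promoters. CCAAT on either strand was found in 21 of the 26 members, or in 62.9% of the 35, against 37.4% of all promoters. Fdft1, Fdps, Sqle, Stard4, Npc1 and Abcg1 were not matched. A match describes letters only and was not tested for binding.

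In the knock-out, 13 of the 29 members rose against control and 0 fell, where 7.55% of all genes tested were called higher and 8.81% lower. The change was above 0 in 28 of the 29, with a median of 0.28, against -0.02 over all genes. Tm7sf2 is among the 13 but reached the filter only through the knock-out, which holds 3 of its 5 arrays at 5 or more, and leaving it out 12 of 28 were called. Called members were Hmgcs1, Pmvk, Idi1 and Fdps of the early pathway, Fdft1, Tm7sf2, Msmo1 and Nsdhl of the sterol steps, Scap and Insig1 of SREBP control, Stard4 and Npc2 of transport, and Abca1 of export. For 9 of the 29 members every knock-out array lay above every control array, as for 5.97% of all genes. Control replicate 4 was the lowest of the 6 controls for 22 of the 29 members (75.9%), and for 46.1% of all genes tested. Without that array 7 members were called, namely Idi1, Fdft1, Tm7sf2, Msmo1, Nsdhl, Npc2 and Abca1, and without knock-out replicate 6 there were 8. With replicates 1 to 3 of both groups alone 9 were called, and with replicates 4 to 6 alone only Hsd17b7, a 3-ketosteroid reductase of the sterol steps, at 1.30 (limma adjusted p = 0.00407). The share of all probe sets called moved too, from 14.6% with every array to 19.4% on replicates 1 to 3 and 7.26% on replicates 4 to 6. It was 12.7% without control replicate 4 and 11.4% without knock-out replicate 6.

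**Figure D1:**
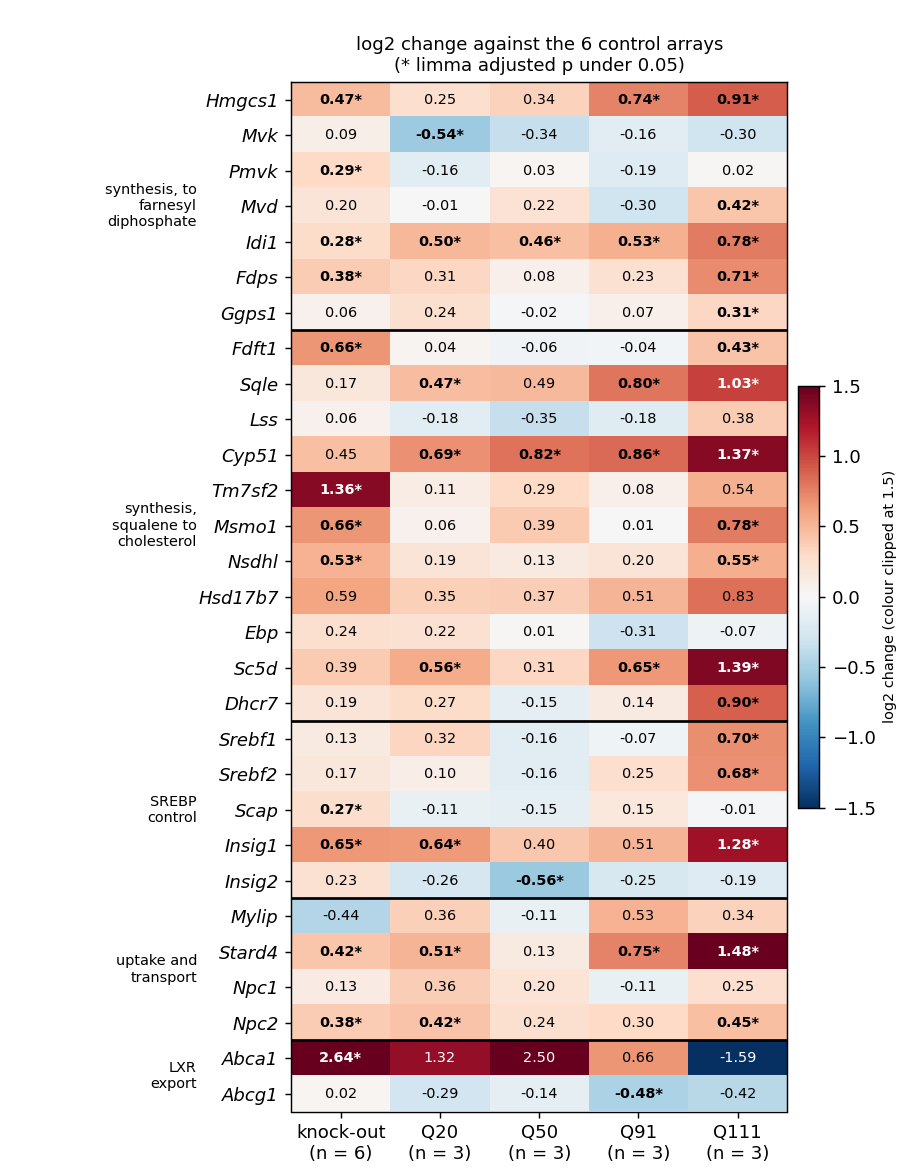
Heat map of the log2 change against the 6 control arrays (colour and printed value, clipped in colour at 1.5) for the 29 members tested, in rows by role, and the 5 mutant groups in columns. Asterisks mark a limma adjusted p under 0.05. Q111 carries 17 marked rises and the knock-out 13, among them Tm7sf2, which was tested only through the knock-out. The only marked falls are Mvk in Q20, Insig2 in Q50 and Abcg1 in Q91.

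Among the knock-in lines, which were set against the same 6 controls as the knock-out and each other, Q111 carried the most called members. There 17 of the 29 members rose and 0 fell, where 16.4% of all genes were called higher and 11.1% lower, and the median change was 0.54 against -0.01 over all genes. In Q20, 7 members rose and 1 fell (16.3% and 10.4% of all genes), with a median of 0.25. In Q91, 6 rose and 1 fell (13.3% and 11.3% of all genes), with a median of 0.15. Q50 had 2 that rose and 1 that fell (5.08% and 2.42% of all genes), with a median of 0.13. The shares of members called higher in Q20, Q91 and Q50 thus lay nearer to those of all genes than the share in Q111. Q111 had the highest mean of the 4 lines for 21 of the 29 members, as it did for 23.9% of all genes. Idi1 and Cyp51 rose in all 4 lines. Markers of primed epiblast, the state of the embryo after implantation, moved with the lines too: of 11 tested, 10 were called higher in Q111, 9 in Q20, 8 in Q91 and 4 in Q50, while 3 were called lower in the knock-out. The log2 of their summed signal ran from 12.60 to 13.03 over the control arrays and from 11.90 to 12.22 over the knock-out arrays. Among the lines Q20 had sums of 14.28 to 14.62, Q50 of 13.33 to 14.27, Q91 of 14.47 to 15.27 and Q111 of 14.54 to 14.72. Fgf5, a defining gene of that state, was at 2.08 in controls and 5.58 in Q111. Of 8 fibroblast markers tested, which feeder cells would carry, 5 were called higher in Q111, 4 in Q20, 4 in Q91, 2 in Q50 and 0 in the knock-out, with Col3a1 at 3.11 to 3.90 in every group mean, a level not told from background. Col1a1, a collagen gene of the same list, was at 3.73 in controls and 3.56 in the knock-out but at 8.40 in Q111, 7.98 in Q20 and 7.48 in Q91. Summed over all 15 of these markers the log2 signal spanned 12.29 to 12.94 in controls and 12.55 to 13.07 in the knock-out. For Q111 it spanned 13.23 to 13.38, for Q91 13.36 to 14.73, for Q20 12.76 to 13.64 and for Q50 11.86 to 13.07. Of 4 trophoblast markers tested, 2 were called higher in each of Q20, Q91 and Q111, 1 in Q50 and 0 in the knock-out. The 10 genes of that list summed to a log2 signal of 11.28 to 11.78 in controls and 11.17 to 11.81 in the knock-out. The sums were 13.06 to 13.25 for Q111, 12.55 to 14.55 for Q91, 11.87 to 13.66 for Q20 and 11.21 to 13.00 for Q50, with the defining Elf5 and Cdx2 at 3.16 or less in every group mean. Of the 12 embryonic stem cell markers, 5 were called lower in Q20, 6 in Q91, 5 in Q111 and 1 each in Q50 and the knock-out, while 1 was called higher in Q20, 1 in Q91 and 2 in the knock-out. Set against the lines, the knock-out had 7 of them higher and 2 lower. Their summed log2 signal was 17.53 to 17.64 in controls and 17.57 to 17.67 in the knock-out. The lines had 17.21 to 17.51 (Q20), 17.49 to 17.61 (Q50), 17.18 to 17.44 (Q91) and 17.24 to 17.58 (Q111). The part of these marker lists in the cholesterol values was not tested.

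The early pathway, from acetyl-CoA units to farnesyl diphosphate, includes Hmgcs1, the synthase that makes HMG-CoA. Hmgcs1 ran from 12.09 to 12.83 (median 12.51) in the control arrays and from 12.84 to 13.11 (median 12.98) in the knock-out arrays, with no overlap. Its Q20 arrays held 12.69, 12.51 and 13.10, Q50 12.43, 12.92 and 13.22, Q91 12.88, 13.36 and 13.51 and Q111 13.35, 13.39 and 13.52. All arrays of Q91 and Q111 lay above all controls, and those of Q20 and Q50 did not. The rise was 0.91 in Q111 (SE 0.17, adjusted p = 0.000646 in limma), 0.74 in Q91 (adjusted p = 0.00382) and 0.47 in the knock-out (adjusted p = 0.0276). The knock-out call was lost without any 1 of control replicates 2 and 4 and knock-out replicates 1, 5 and 6, with changes of 0.39 to 0.46 and adjusted p from 0.0515 to 0.0674. It held in 14 of 22 alternatives, and was also lost with the mean of the gene's probe sets.

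Idi1, the isomerase that makes dimethylallyl diphosphate, was the member called in every mutant group. Its control arrays ran from 11.46 to 11.76 (median 11.66) and its knock-out arrays from 11.68 to 12.06 (median 11.96). In Q20 it was at 12.17, 12.06 and 12.20, in Q50 at 12.002, 12.23 and 12.07, in Q91 at 12.07, 12.13 and 12.33 and in Q111 at 12.45, 12.49 and 12.34. Every knock-in array thus lay above every control array, whereas 1 knock-out array, replicate 2, lay within the control range. Idi1 rose by 0.28 in the knock-out (SE 0.08, adjusted p = 0.0181), 0.50 in Q20, 0.46 in Q50 (adjusted p = 0.00568), 0.53 in Q91 and 0.78 in Q111 (adjusted p = 1.08e-05). These calls held without any single array, and a second Idi1 probe set gave the same calls except in Q50 (change 0.36).

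Fdps, the synthase of farnesyl diphosphate, was at 12.41, 12.34 and 12.22 in Q111, above all controls (11.11 to 11.84 (median 11.68)), and rose there by 0.71 (adjusted p = 0.00207). In the knock-out it ran from 11.88 to 12.09 (median 12.003), again above every control, but its rise by 0.38 had an adjusted p of 0.0492, and leaving out any 1 of 10 of the 12 arrays ended that call. Mvd, the mevalonate diphosphate decarboxylase, rose in Q111 by 0.42 (adjusted p = 0.0243), with arrays at 9.30, 9.28 and 8.65, and the last of these lay within the control range. Without Q111 replicate 1 or 2 its change was 0.31 or 0.32 and was not called. The Mvd call held in 12 of 19 alternatives, and was lost with quantile normalization, median centring or the mean of its probe sets. Ggps1, which makes the geranylgeranyl diphosphate used to modify proteins, rose in Q111 by 0.31 (adjusted p = 0.0485). That call was lost without any 1 of 8 of the 9 arrays compared, but its other probe sets were called in Q111 and in Q91 as well, with rises of 0.49 and 0.89 in Q111 and of 0.58 and 0.48 in Q91.

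The 2 kinases of mevalonate went other ways. Mvk, the mevalonate kinase, fell by 0.54 in Q20 (adjusted p = 0.0107), with arrays at 6.44, 6.40 and 6.95 against 6.96 to 7.42 (median 7.09) in controls. Its Q50 and Q111 arrays also lay below every control, with changes of -0.34 and -0.30 that were not called (adjusted p = 0.153 and 0.141). Without Q20 replicate 1 or 2 the Q20 call was lost. Pmvk, the phosphomevalonate kinase, rose by 0.29 in the knock-out alone (adjusted p = 0.0383), with arrays of 9.81 to 10.004 (median 9.93) against 9.38 to 9.77 (median 9.64) in controls and no overlap. Its changes in the lines were -0.16, 0.03, -0.19 and 0.02 in repeat order, and its knock-out call was lost without any 1 of 9 of the 12 arrays.

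**Figure D2:**
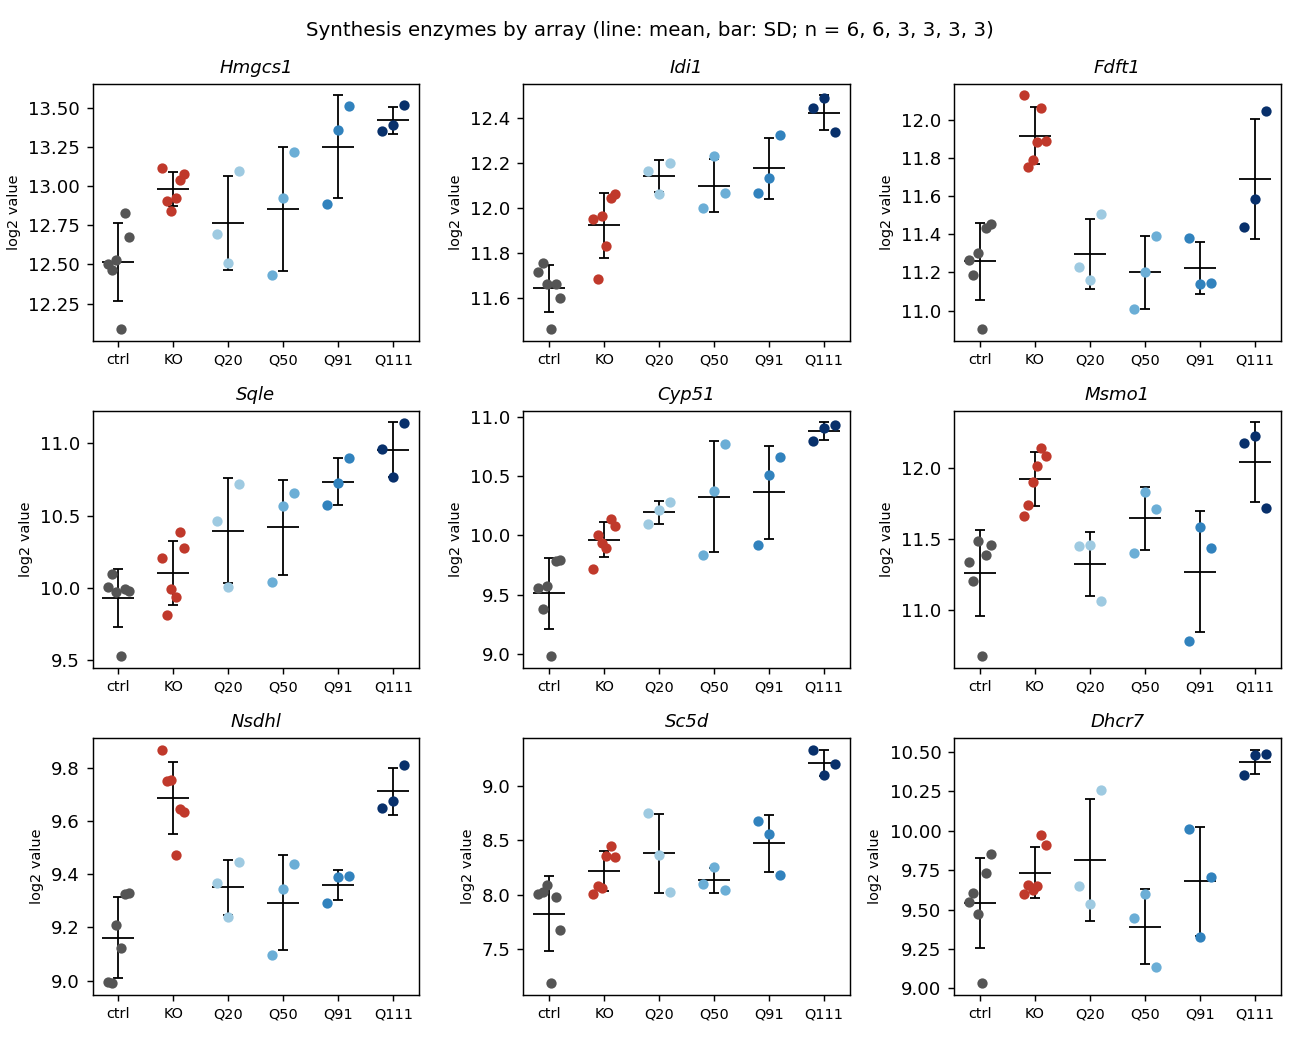
Log2 value of 9 synthesis enzymes on each array, by group (points: arrays, line: mean, bar: SD). Hmgcs1, Sqle, Cyp51 and Sc5d sit highest in Q111, while Fdft1 sits highest in the knock-out, where its arrays run from 11.75 to 12.13.

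The sterol steps, from squalene to cholesterol, include Fdft1 and Sqle, which had the smallest adjusted p among the members higher and among those lower in the knock-out than in the lines. Fdft1, squalene synthase, which commits farnesyl diphosphate to sterols, ran from 10.90 to 11.46 (median 11.28) in controls and 11.75 to 12.13 (median 11.88) in the knock-out, with no overlap. In the lines it was at 11.23, 11.16 and 11.51 (Q20), 11.01, 11.20 and 11.39 (Q50), 11.38, 11.14 and 11.15 (Q91) and 11.44, 11.58 and 12.05 (Q111). Q20, Q50 and Q91 overlapped the controls, and in Q111 replicate 3 alone reached the knock-out range. Fdft1 rose by 0.66, or 1.58-fold, in the knock-out (SE 0.11, adjusted p = 0.000732), and the rise in Q111 was 0.43 (adjusted p = 0.0271). The Q111 call was lost without Q111 replicate 3 (change 0.25, adjusted p = 0.219) or control replicate 4 (change 0.36, adjusted p = 0.0539).

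Sqle, squalene epoxidase, a rate-limiting step, showed the reverse order. Its control arrays ran from 9.53 to 10.09 (median 9.98) and its knock-out arrays, from 9.81 to 10.39 (median 10.10), overlapped them (change 0.17, adjusted p = 0.451). Q20 held 10.47, 10.004 and 10.72, Q50 10.04, 10.56 and 10.65, Q91 10.57, 10.73 and 10.90 and Q111 10.96, 10.77 and 11.14, so that every array of Q91 and Q111 lay above every control and knock-out array. Sqle rose by 1.03 in Q111 (SE 0.17, adjusted p = 0.000183), then 0.80 for Q91 (adjusted p = 0.00173) and 0.47 for Q20 (adjusted p = 0.0466). The Q20 call was lost in 14 of 19 alternatives, among them leaving out Q20 replicate 3, whereas those in Q91 and Q111 held in all 19.

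Cyp51, the lanosterol demethylase, ran from 8.98 to 9.79 (median 9.56) in controls and 9.72 to 10.14 (median 9.97) in the knock-out. The knock-in values were 10.09, 10.22 and 10.28 in Q20, 9.84, 10.37 and 10.77 in Q50, 9.92, 10.51 and 10.66 in Q91 and 10.80, 10.91 and 10.93 in Q111, all above the highest control. It rose by 0.69, 0.82, 0.86 and 1.37 in repeat order, the last 2.59-fold (SE 0.19, adjusted p = 3.42e-05), while the knock-out change of 0.45 just missed the threshold (adjusted p = 0.0518). In Q50 the call needed replicate 3, at 10.77, without which the change was 0.59 (adjusted p = 0.0793). On that array the 3' and 5' probe sets of Actb, a sign of RNA quality, differed by 1.54, against 0.75 to 1.03 on the others, and the part of this in the call was not tested. A second, weaker Cyp51 probe set was called in Q111 only, with a rise of 1.03, so the calls in the other lines rest on 1 probe set.

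Lss, which closes the sterol ring, was not called against control in any group on its chosen probe set, with changes from -0.35 in Q50 to 0.38 in Q111. Another Lss probe set rose by 1.56 in Q111. Tm7sf2, a sterol reductase, rose by 1.36 in the knock-out (SE 0.33, adjusted p = 0.00831). Its controls ran from 3.07 to 4.57 (median 3.61), under the level told from background, and the knock-out arrays held 5.61, 4.95, 4.28, 5.44, 5.38 and 4.42, so the size of the change is not settled. As it was tested only because of the group where it is high, its call is not used as support. The line means of Tm7sf2 stayed at 3.73 to 4.19, also under that level.

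Msmo1, a methylsterol oxygenase, and Nsdhl, a dehydrogenase of the same demethylation steps, rose both in the knock-out and in Q111. Msmo1 ran from 10.68 to 11.49 (median 11.36) in controls and from 11.66 to 12.14 (median 11.96) in the knock-out, and was at 12.17, 12.23 and 11.72 in Q111, neither of which overlapped the controls. Q20 (11.45, 11.46 and 11.06), Q50 (11.40, 11.83 and 11.71) and Q91 (10.79, 11.59 and 11.44) overlapped the controls. The rises were 0.66 in the knock-out (SE 0.15, adjusted p = 0.00667) and 0.78 in Q111 (adjusted p = 0.00458), and a second, weaker probe set of Msmo1 was not called in either (0.32 and -0.12).

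Nsdhl ran from 8.99 to 9.33 (median 9.17) in controls and 9.47 to 9.87 (median 9.70) in the knock-out, and was at 9.65, 9.67 and 9.81 in Q111. Neither mutant group overlapped the controls. The rises were of like size, 0.53 in the knock-out (SE 0.08, adjusted p = 0.000380) and 0.55 in Q111 (SE 0.10, adjusted p = 0.000599), and both held without any single array. In Q20, Q50 and Q91 its changes of 0.19, 0.13 and 0.20 were not called.

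Sc5d and Dhcr7, which work late in the pathway, showed their largest changes in Q111. Sc5d, the lathosterol oxidase, ran from 7.18 to 8.09 (median 7.99) in controls and 8.01 to 8.45 (median 8.21) in the knock-out, and held 8.75, 8.36 and 8.03 in Q20, 8.10, 8.26 and 8.04 in Q50, 8.68, 8.56 and 8.18 in Q91 and 9.34, 9.10 and 9.21 in Q111. It rose by 1.39 in Q111, or 2.62-fold (SE 0.18, adjusted p = 2.03e-05), then 0.65 for Q91 (adjusted p = 0.0133) and 0.56 for Q20 (adjusted p = 0.0284). Without replicate 1 or 2 of Q91, or of Q20, the call in that line was lost. Dhcr7, the last reductase before cholesterol, ran from 9.03 to 9.85 (median 9.58) in controls and was at 10.35, 10.48 and 10.48 in Q111, with no overlap. It rose there by 0.90 (adjusted p = 0.000974), and in the other groups its changes lay between -0.15 and 0.27 and were not called. Hsd17b7 (changes 0.35 to 0.83) and Ebp, a sterol isomerase (changes -0.31 to 0.24), were called in no group. Over the 18 synthesis enzymes tested, 12 rose in Q111, 5 in Q91 and 2 in Q50, and in Q20 4 rose and 1 fell. In the knock-out 8 rose, among them Tm7sf2, which was tested only through that group and is not used as support. The share of all genes called higher was 16.4% in Q111, 7.55% in the knock-out, 13.3% in Q91, 5.08% in Q50 and 16.3% in Q20, so the counts of Q50 and Q20 lay near it.

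Of the 5 genes of SREBP control, 3 rose in Q111 and 2 in the knock-out. Srebf1, which encodes SREBP-1 and is known as a driver of fatty acid synthesis, ran from 8.39 to 9.06 (median 8.63) in controls and 8.73 to 8.89 (median 8.81) in the knock-out. Q20 held 9.04, 8.90 and 9.04, Q50 8.34, 8.53 and 8.68, Q91 8.94, 8.56 and 8.31 and Q111 9.47, 9.34 and 9.30. Only the Q111 arrays lay above all controls, and Srebf1 rose there by 0.70 (SE 0.13, adjusted p = 0.000557) and was called in no other group. Srebf2, which encodes SREBP-2, the main driver of cholesterol synthesis, was at 10.22, 10.32 and 10.52 in Q111 against 9.22 to 9.97 (median 9.70) in controls. It rose by 0.68 (adjusted p = 0.0230), but not without Q111 replicate 2 or 3 (adjusted p = 0.0615 and 0.0900), and a second Srebf2 probe set, with a change of 0.08, was not called.

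Insig1, itself a target of SREBP, ran from 8.88 to 9.81 (median 9.36) in controls and 9.78 to 10.29 (median 10.06) in the knock-out. The lines held 9.93, 9.80 and 10.42 (Q20), 9.20, 9.78 and 10.45 (Q50), 10.07, 9.74 and 9.95 (Q91) and 10.49, 10.49 and 11.08 (Q111), and Q111 alone was clear of the controls. Insig1 rose by 1.28, or 2.42-fold, in Q111 (SE 0.23, adjusted p = 0.000398), by 0.65 in the knock-out (adjusted p = 0.0225) and by 0.64 in Q20 (adjusted p = 0.0444). The knock-out call was lost without control replicate 4 (change 0.55, adjusted p = 0.0559), and the Q20 call in 12 of 19 alternatives, among them leaving out any 1 of the Q20 arrays.

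Insig2, the other retention protein, had changes below 0 in all 4 lines, unlike Insig1. Its values were 9.04, 9.03 and 8.82 in Q20, 9.04, 8.45 and 8.50 in Q50, 9.50, 8.76 and 8.67 in Q91 and 9.05, 8.83 and 9.20 in Q111, against 9.12 to 9.41 (median 9.16) in controls and 9.32 to 9.59 (median 9.48) in the knock-out. The arrays of Q20 and Q50 lay below all controls. It fell by 0.56 in Q50 (adjusted p = 0.0319), a call lost without any 1 of control replicates 1 and 3 and Q50 replicates 2 and 3. Scap, the escort of SREBP, rose in the knock-out by 0.27 (adjusted p = 0.0235), with arrays of 9.22 to 9.48 (median 9.36) against 8.93 to 9.17 (median 9.10) in controls, and its line changes lay between -0.15 and 0.15. Without control replicate 4 or knock-out replicate 6 it was not called (adjusted p = 0.0541 and 0.0588).

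Among the uptake and transport genes, Stard4, a carrier that moves cholesterol between membranes, showed the largest change of any member in Q111 that was called. It ran from 8.53 to 9.21 (median 8.96) in controls and 9.20 to 9.51 (median 9.36) in the knock-out. The knock-in arrays held 9.30, 9.38 and 9.62 in Q20, 9.04, 9.38 and 8.76 in Q50, 9.58, 9.51 and 9.94 in Q91 and 10.31, 10.29 and 10.64 in Q111. Those of Q20, Q91 and Q111 lay above all controls, and the Q111 arrays above every other array. Stard4 rose by 1.48, or 2.8-fold, in Q111 (SE 0.14, adjusted p = 1.04e-06), then 0.75 for Q91 (adjusted p = 0.000860), 0.51 for Q20 (adjusted p = 0.0141) and 0.42 in the knock-out (adjusted p = 0.0210). Its other probe sets rose in the knock-out as well, by 0.60 and 0.70, although the call on the chosen one was lost without control replicate 4 or knock-out replicate 6 (adjusted p = 0.0517 and 0.0514). In Q20 it was lost without Q20 replicate 3.

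Npc2, a lysosomal protein that hands cholesterol to Npc1, ran from 10.63 to 11.04 (median 10.91) in controls and 11.11 to 11.50 (median 11.26) in the knock-out, with no overlap. In Q20 it was at 11.33, 11.12 and 11.49, in Q50 at 10.85, 11.25 and 11.28, in Q91 at 11.21, 11.24 and 11.11 and in Q111 at 11.32, 11.33 and 11.37. The rises were 0.38 in the knock-out (SE 0.09, adjusted p = 0.0102), 0.42 in Q20 (adjusted p = 0.0103, lost without Q20 replicate 3) and 0.45 in Q111 (adjusted p = 0.00616). Npc1, the lysosomal membrane transporter, was not called in any group, with changes from -0.11 to 0.36. Mylip was not called against control either, and its group means lay between 4.03 and 5.00, at or under the level told from background.

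**Figure D3:**
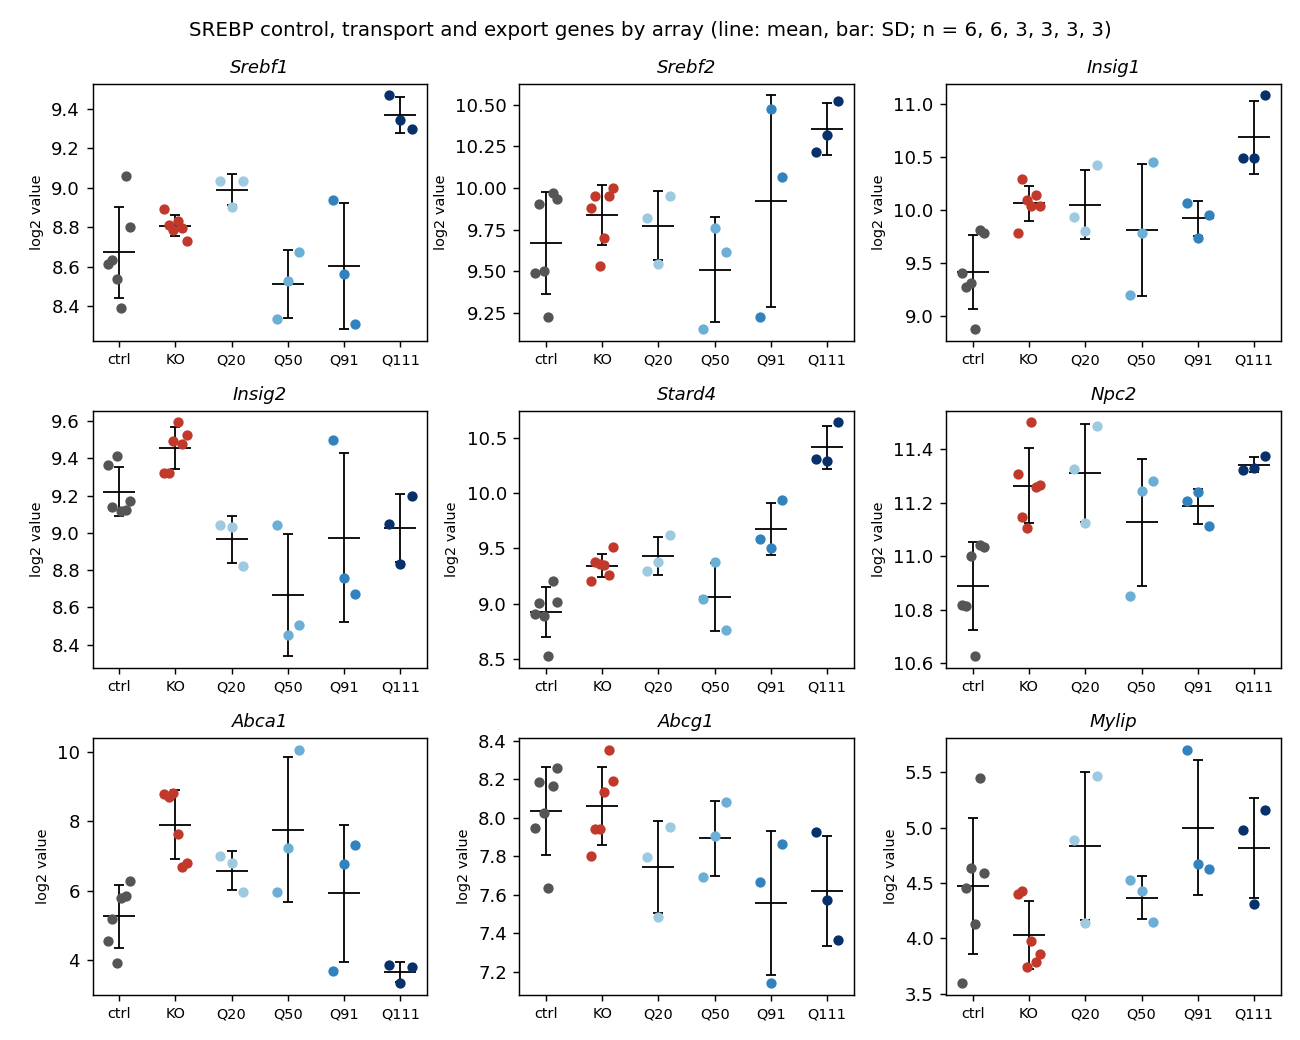
Log2 value of 9 genes of SREBP control, transport and export on each array, by group (points: arrays, line: mean, bar: SD). Stard4, Srebf1 and Insig1 are highest in Q111, where Abca1 is lowest, at 3.34 to 3.86.

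Abca1, the transporter that loads cholesterol onto apolipoproteins, had a wide spread within groups. Its control arrays held 4.54, 5.17, 3.91, 5.78, 5.85 and 6.29 and its knock-out arrays 8.78, 8.69, 8.80, 7.62, 6.69 and 6.78. In the lines it was at 6.99, 6.78 and 5.95 (Q20), 5.97, 7.22 and 10.06 (Q50), 3.67, 6.77 and 7.32 (Q91) and 3.86, 3.34 and 3.80 (Q111). Every knock-out array lay above every control and every Q111 array below, while arrays within Q50 and within Q91 differed by more than 3 log2 units. Abca1 rose by 2.64 in the knock-out (SE 0.65, adjusted p = 0.00946), a call that held without any single array. On replicates 1 to 3 alone the change was 4.22 (adjusted p = 0.000523), its size not settled since those 3 controls had a mean of 4.54, under the level told from background, and on replicates 4 to 6 alone it was 1.06 and not called. No line passed: the changes were 1.32 in Q20 (adjusted p = 0.241), 2.50 in Q50 (adjusted p = 0.0576), 0.66 in Q91 (adjusted p = 0.602) and -1.59 in Q111 (adjusted p = 0.151). The mean of 3.66 in Q111 is under the level told from background, so the size of that change is not settled. The other Abca1 probe sets did not reach the filter, with means of 3.43 and 3.38 in controls, 4.25 and 4.27 in the knock-out and 2.97 and 2.82 in Q111.

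Abcg1, which passes cholesterol to high-density lipoprotein, was not called in the knock-out (change 0.02, SE 0.14, adjusted p = 0.936). Its arrays ran from 7.63 to 8.26 (median 8.09) in controls and 7.80 to 8.35 (median 8.04) in the knock-out. It was at 7.80, 7.48 and 7.95 in Q20, 7.69, 7.91 and 8.08 in Q50, 7.66, 7.14 and 7.86 in Q91 and 7.92, 7.57 and 7.36 in Q111, and each line overlapped the controls. Abcg1 fell by 0.48 in Q91 (adjusted p = 0.0492), a call that was lost in 13 of 19 alternatives, among them without Q91 replicate 2 (change -0.27, adjusted p = 0.365). In Q111 it was not called with every array, but it was called lower without control replicate 4 (change -0.50, limma adjusted p = 0.0348).

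Set against the mean of the 4 lines, a difference in which the controls do not enter, the knock-out had 10 members higher and 6 lower, where 21.2% of all genes were called higher and 27.9% lower. Higher in the knock-out were Mvk (0.43), Pmvk (0.37), Fdft1 (0.57), Tm7sf2 (1.11, tested only through the knock-out and with the lines under background), Msmo1 (0.35), Nsdhl (0.26), Scap (0.29), Insig2 (0.55), Abca1 (1.92) and Abcg1 (0.36). Lower were Idi1 (-0.29), Sqle (-0.52), Cyp51 (-0.48), Sc5d (-0.33), Mylip (-0.72, tested only through the lines) and Stard4 (-0.30). The smallest adjusted p in each direction belonged to Fdft1 (9.16e-05) and Sqle (0.00116), the neighbouring enzymes that make and oxidise squalene. Both export genes were thus higher in the knock-out than in the mean of the lines, and neither Srebf gene was called (-0.06 and -0.05). That mean covers unlike lines. Abca1 had a mean of 7.89 in the knock-out and 7.75 in Q50. In Q111 it was at 3.66, under the level told from background, so the size of its difference is not settled. Msmo1 and Nsdhl had higher means in Q111 (12.04 and 9.71) than in the knock-out (11.92 and 9.69). Sc5d and Stard4 had lower means in Q50 (8.13 and 9.06) than in the knock-out (8.22 and 9.34). Without the Q111 arrays the calls of Cyp51, Sc5d, Stard4 and Abca1 were lost, and the calls of Msmo1 and Sc5d were lost without several single arrays, among them knock-out replicate 3 and Q91 replicate 1. The call of Stard4 was lost without knock-out replicate 1, and that of Abcg1 without knock-out replicate 5 or the Q91 arrays. Taking the mean of a gene's probe sets ended the calls of Cyp51 and Stard4, and median centring ended that of Stard4. Mean Mylip in both arms lay under 5 or at it. Mylip reached 5 on 4 arrays, among them the highest of Q20 (5.47), Q91 (5.71) and Q111 (5.16). Its highest knock-out array was at 4.43. As it passed the filter only through the lines, where it is high, its call is not used as support.

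**Figure D4:**
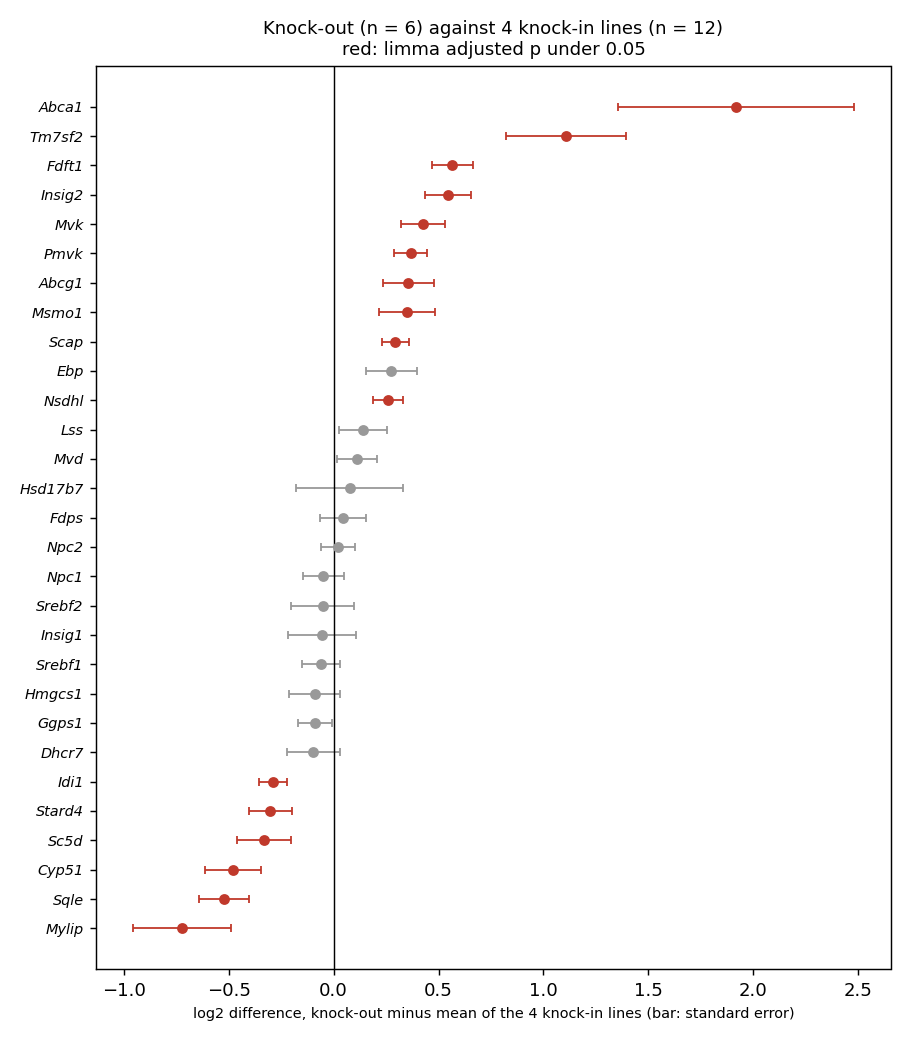
Log2 difference of the knock-out (n = 6) from the mean of the 4 knock-in lines (n = 12) for the 29 members, with standard errors, in order of size. Red points have a limma adjusted p under 0.05: 10 lie above 0, led by Abca1 at 1.92, and 6 below, with Sqle at -0.52. The Abca1 mean was 7.89 in the knock-out, 7.75 in Q50 and, under background, 3.66 in Q111. Mylip, at -0.72, was tested only through the lines, and Tm7sf2 only through the knock-out.

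Across the 12 knock-in arrays, the regression slope on the longer allele's repeat number was not called for any member (0 of 29, where 0.021% of all genes were called rising and 0.0316% falling). It was above 0 for 25 of the 29, with a median of 0.34 per 100 repeats against -0.01 over all genes, and at an unadjusted p under 0.05 for 10 of 29 members and 422 of 9504 genes. These 10 were Hmgcs1 (slope 0.73, SE 0.21), Idi1 (0.28), Sqle (0.61), Lss (0.55), Cyp51 (0.61), Nsdhl (0.34), Sc5d (0.86), Srebf2 (0.66), Stard4 (1.10) and, with a negative sign, Abca1 (-3.28). Stard4 had the smallest p, with an adjusted p of 0.502. Q111, at the end of the repeat range, had the highest line mean for 21 of the 29 members. Lss, for one, had line means of 10.11, 9.93, 10.10 and 10.66 in repeat order. The slope takes the 12 arrays of 4 lines as separate values. With line as a random block, or without line Q111, again 0 members were called. The 4 line means stood in ascending order of repeat number for Hmgcs1, Sqle, Cyp51 and Hsd17b7 and in descending order for 0 members, against 2.19% and 2.38% of all genes.

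A test of any difference among the 4 lines on the same 12 arrays called 0 of the 29 members, where 0.116% of all genes were called, and 10 members against 1392 genes had an unadjusted p under 0.05. Stard4 came nearest (adjusted p = 0.0650), with line means spanning 1.35. With all 24 arrays in the fit, an alternative chosen after seeing the data, 7 members were called: Stard4 (adjusted p = 0.000326), Srebf1 (0.00277), Sc5d (0.00980), Dhcr7 (0.0131), Mvd (0.0198), Abca1 (0.0302) and Lss (0.0473), where 10.3% of all genes were called. For 8 members, namely Idi1, Cyp51, Nsdhl, Sc5d, Dhcr7, Srebf1, Insig1 and Stard4, every Q111 array lay above every other knock-in array, as for 0.884% of all genes.

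**Figure D5:**
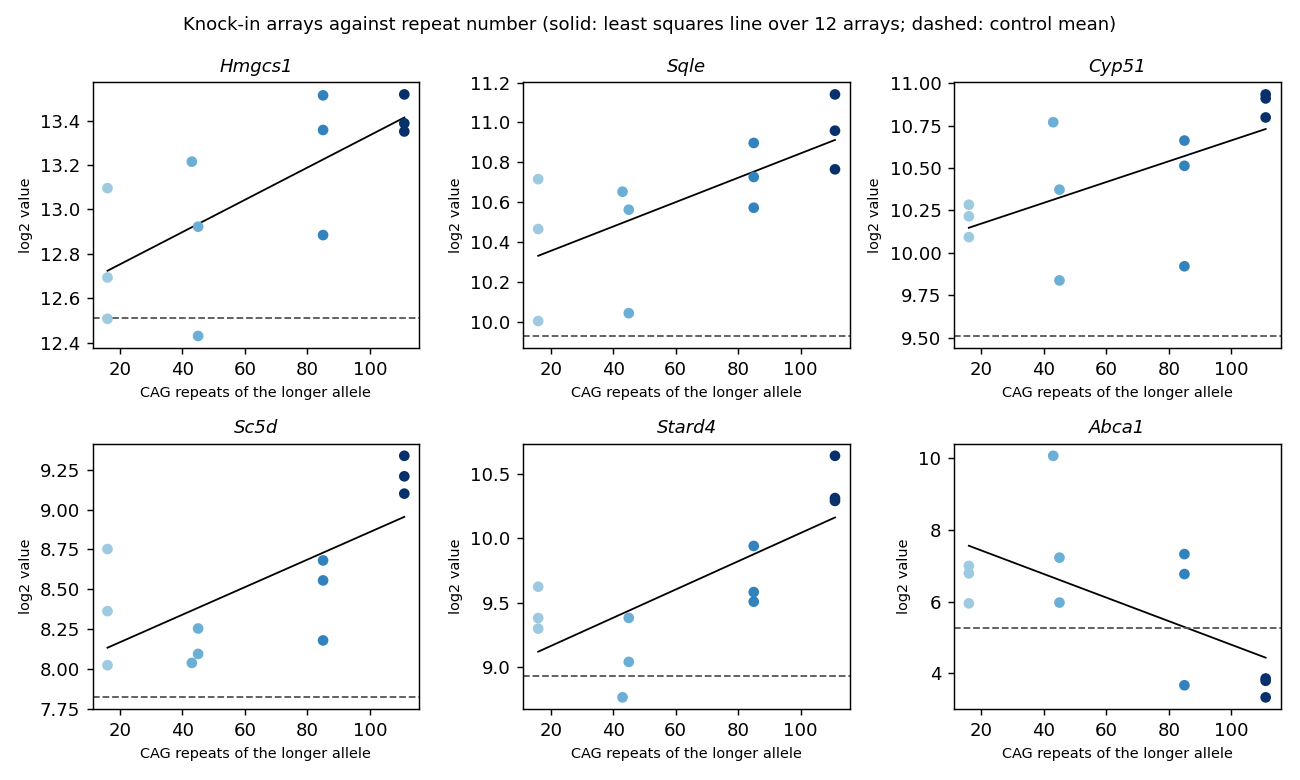
Log2 value of 6 members on the 12 knock-in arrays against the CAG repeats of the longer allele, with the least squares line (solid) and the control mean (dashed). Stard4 and Sc5d step up at 111 repeats, with Q111 arrays from 10.29 to 10.64 for Stard4, while the line means of Hmgcs1, Sqle and Cyp51 stand in repeat order and Abca1 scatters widely.

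Genes around the pathway were counted from lists set beside the members. Of 20 fatty acid genes, a list that includes known targets of SREBP-1, 10 rose and 1 fell in Q111, with a median change of 0.54, where 16.4% of all genes were called higher and 11.1% lower. Fasn, the fatty acid synthase, rose by 0.81 there (adjusted p = 4.3e-05), Fads2, a desaturase, by 1.34, Acsl4, an acyl-CoA ligase, by 1.55 and Acly, which supplies acetyl-CoA, by 0.58. In the knock-out 3 rose and 0 fell, where 7.55% of all genes were called higher and 8.81% lower: Scd1 by 0.98 (adjusted p = 0.00458) and Scd2 by 0.40, both desaturases, and Lpin1 by 0.68. In Q20 6 rose and 1 fell, in Q91 1 rose and 4 fell, and in Q50 0 rose and 1 fell. Over all genes 16.3% were called higher and 10.4% lower in Q20, 13.3% and 11.3% in Q91, and 5.08% and 2.42% in Q50.

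Another list held genes of SREBP processing and sterol-regulated degradation beside other factors such as Nsf, a membrane fusion factor. Of its 12 tested genes, 1 rose and 3 fell in the knock-out. Nsf fell there by 0.46 and Rnf145, a ubiquitin ligase of sterol control, by 0.53. In Q111, 2 rose and 0 fell, and Rnf145 rose there by 0.36. In Q20 3 rose and 0 fell, in Q50 2 rose and 1 fell, and in Q91 1 rose and 3 fell. Of 12 genes of the isoprenoid side branch, 0 rose and 2 fell in the knock-out, with Fntb, a subunit of farnesyltransferase, down by 0.63, and 2 rose and 2 fell in Q111, with Zmpste24, a protease of prenylated proteins, up by 0.72. In the other lines 3 isoprenoid genes rose and 2 fell in Q20, 1 rose and 0 fell in Q91, and 0 were called in Q50. Of 16 other uptake and turnover genes, 5 rose and 1 fell in Q111 and 1 of each in the knock-out. More of them rose in Q20 (8, with 1 fall) and Q91 (7, with 1 fall), and in Q50 2 rose and 0 fell. Of all genes 7.55% were called higher and 8.81% lower in the knock-out and 16.4% and 11.1% in Q111. The shares were 16.3% and 10.4% in Q20, 13.3% and 11.3% in Q91 and 5.08% and 2.42% in Q50. Several of these counts, among them those of the isoprenoid list in Q111 and the knock-out, lie near these shares. Lrp2, an endocytic lipoprotein receptor, fell by 3.63 in the knock-out and rose by 1.88 in Q111, and Scarb2, a lysosomal membrane protein, rose by 1.36 in the knock-out.

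Of 7 partners or further targets of LXR, 3 rose in the knock-out (7.55% of all genes) and 4 in Q111 (16.4% of all genes), and 0 fell in either. In each of Q20 and Q91 1 rose, in Q50 0 rose, and 0 fell in these lines. Of all genes 16.3%, 13.3% and 5.08% were called higher in Q20, Q91 and Q50. Pltp, a phospholipid transfer protein known as an LXR target, rose by 1.12 in the knock-out (adjusted p = 0.000221), where Abca1 rose too. The LXR targets Abcg1 (change 0.02) and Mylip (change -0.44, near background) were not called there. Lpcat3, a phospholipid acyltransferase, rose by 0.32 in the knock-out and 0.39 in Q111, so that this gene and Abca1 differed in direction in Q111, where the Abca1 value was not called.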

How the data were processed

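RNA of 24 samples was hybridised to Affymetrix MG 430 2.0 arrays. The deposited log2 values per probe set were computed by GCRMA, as the submitters' processing notes name it. GCRMA corrects background by probe sequence, normalizes the arrays together and summarises probes. No version is named. After removal of 64 AFFX control probe sets, 17980 of 45037 probe sets (39.9%) passed the filter of a log2 value of 5 on at least 3 arrays.

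R 4.3.3 and limma 3.58.1 fitted all 24 arrays with a mean per group (18 residual degrees of freedom, no block). The slope and the test among lines used the 12 knock-in arrays. Tests were two-sided, adjusted by Benjamini-Hochberg over the 17980 probe sets, and called under 0.05. All members were named, with array values for the largest called changes of each role, other probe sets where their calls differed, and the smallest p of each context list. Members, lists and tests were chosen with earlier results of these data known. All comparisons with control share its 6 arrays. The fits were tested on simulated data. Same-numbered control and knock-out arrays deviated oppositely (correlations -0.41 to -0.26), so numbers were not taken as pairs there. Of the pairs of lines only Q20 with Q111 (0.39 to 0.46) and Q50 with Q91 (0.20 to 0.41) had every same-numbered correlation above 0.1. The slope and the test among lines compare these lines and were also fitted without a block, so they leave that shared part out of account. A replicate block is among the alternatives given below. The number of arrays limits the precision.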

Additional observations from a re-analysis of the deposited data

Results flagged for a closer look

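The values of 30 members in the control and the knock-out made 60 groups of 6 arrays, and 3 values lay far from the other 5 by Dixon's test, which chance alone meets in about 1 in 20 groups, so that about 3 are what chance gives. Sqle in control replicate 4 was at 9.53, with the next control at 9.97, and Msmo1 in the same array was at 10.68, with the next at 11.21. Lss in knock-out replicate 6 was at 10.55, with the next at 10.35. Their causes were not tested.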

How the results depend on the processing

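The called members kept their direction under every alternative run. For the knock-out 13 became 1 on replicates 4 to 6 alone, and 7 to 14 with single arrays left out (7 without control replicate 4, 8 without knock-out replicate 6). The share of all probe sets called went from 14.6% to 7.26% on replicates 4 to 6, and to 12.7% and 11.4% without those arrays. The 8 of Q20 became 3 with control replicates 4 to 6 only, 5 with no filter and 5 with only 2 groups in the fit, and 4 to 9 with arrays left out (4 without Q20 replicate 3, 5 without replicate 1). Over all probe sets the Q20 share went from 25.2% to 12.4%, 8.6% (of 45037) and 26% in the first 3 of these settings. It was 21.7% without Q20 replicate 3 and 14.7% without replicate 1. The 3 of Q50 became 1 with control replicates 1 to 3 only, with control replicates 4 to 6 only, with the mean of a gene's probe sets and with 2 groups in the fit, and 1 to 7 with arrays left out (7 without Q50 replicate 1, 1 without replicate 3). The share over all went from 8% of probe sets to 4.04%, 2.95%, 7.41% (of genes) and 3.34% in the first 4 of these settings. It was 11.2% without Q50 replicate 1 and 6% without replicate 3. Q50 replicate 3 also had an Actb difference between 3' and 5' probe sets of 1.54, against 0.75 to 1.03 elsewhere. The 0 of the test among lines became 7 with all 24 arrays in the fit, 1 with an intensity trend and robust fit, and 0 to 3 with arrays left out (3 without Q91 replicate 1, 1 without Q50 replicate 2). Over all probe sets its share went from 0.167% to 9.74%, 0.289%, 2.76% and 0.367% in these 4 settings. The cause was not tested.

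The counts for Q91 (5 to 8), Q111 (13 to 17), the knock-out against the lines (12 to 17) and the slope (0 throughout) stayed within 1.5 times. In Q111, 13 of 17 calls held without any single array, and 12 under every alternative. The Q111 counts include 1 fall with quantile normalization, with median centring and with 2 groups in the fit. They also include 1 fall without control replicate 4 and without Q111 replicate 1. A replicate block gave 13 in the knock-out, 6 in Q20, 2 in Q50, 6 in Q91, 16 in Q111, 13 for the knock-out against the lines and 0 for the slope and among lines, where it took the test among lines from 30 to 123 of the 17980 probe sets, and 0 of 6 control arrays correlated best with the knock-out array of their own number. Signal near background limits Tm7sf2, Mylip, Hsd17b7 and Abca1 in Q111.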
